A study of Mus musculus with 15 samples.

Results

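The comparison set the 10 lung nodules grown from D2.A1 cells against the 5 lung nodules grown from D2.OR cells. Members were chosen by the line named at the start of each sample title, and together they are all 15 of the 15 arrays. D2.A1 and D2.OR are mouse mammary cancer lines of the D2.HAN series. Both lines were inoculated through the tail vein of BALB/c mice, for which the study's lung experiments give females a few weeks old. Before inoculation the cells were kept on 2D plastic (unprimed) or for 3 to 5 days in 3D culture on Cultrex basement membrane extract (primed). The D2.A1 side held 3 spindle and 3 epithelial nodules of 2D cells and 2 spindle and 2 epithelial nodules of 3D cells. The D2.OR side held 2 nodules of 2D cells, numbered 2 and 3, and 3 nodules of 3D cells. The sample annotation gives every D2.OR nodule as spindle, although the D2.OR titles name no morphology. The study describes spindle nodules for primed D2.OR cells and small micro-nodules for unprimed ones. The full comparison thus mixes morphology with cell line. A comparison of the 5 spindle D2.A1 nodules with the 5 D2.OR nodules was run beside it. Nodules were cut by laser microdissection from stained, formalin-fixed lung sections, and each gave 1 Affymetrix Mouse Gene 2.0 ST array. The labels do not tie a nodule to a mouse, and the study gives fewer mice than D2.A1 nodules, so some nodules share a mouse and every p-value below, taken over nodules, is too small to that extent.

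A breast cancer cell that reaches the lung through the blood can enter a state of dormancy, in which it persists with little growth, or it can colonize the tissue. D2.OR is used as the dormant and D2.A1 as the metastatic line of this pair. Lesions also contain host cells, among them endothelium, fibroblasts, macrophages and lymphocytes, and the lung lies next to brown and white fat of the mediastinum, whose cells burn or store lipid. A bulk array reads tumor and host RNA together, so fewer cells of a type and less RNA per cell cannot be told apart.

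All values are log2 signals of the deposited table, and a difference is the D2.A1 mean minus the D2.OR mean, with the 2D and 3D strata weighted equally. Array medians lay between 1.81 and 1.91, and the correlation between arrays ran from 0.855 to 0.969. The D2.OR side was the less uniform. The lung marker Sftpc, surfactant protein C of alveolar type II cells, was at 3.89 and 2.02 in D2.OR 2D and at 10.25, 8.09 and 10.76 in D2.OR 3D, against a lowest value of 4.88, a median of 8.33 and a highest of 8.74 in D2.A1. The lung label was thus backed by this marker in the D2.OR 3D and D2.A1 nodules and hardly in those of D2.OR 2D. Krt8, Krt18, Cdh1 and Epcam, which mark epithelium, did not pass the test, and none of 25 measured epithelial genes or 15 mammary lineage genes did. Over all genes 1.52% were higher and 3.67% lower, so lists of this size would hold few called genes in any case. Among the other tumor cell markers, Cd44 did not pass and Vim was higher by 1.44 (adjusted p = 0.00411). The mean of 23 mesenchymal genes was 3.98 to 4.47 in D2.A1. It was 3.40 and 3.60 in D2.OR 2D and 4.40, 3.48 and 4.47 in D2.OR 3D. These values do not show that both sides held the same share of tumor cells. The mean of 29 measured fat cell genes was 2.01 to 2.13 in the D2.A1 nodules and 2.71 to 6.36 in the D2.OR nodules.

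**Figure D1:**
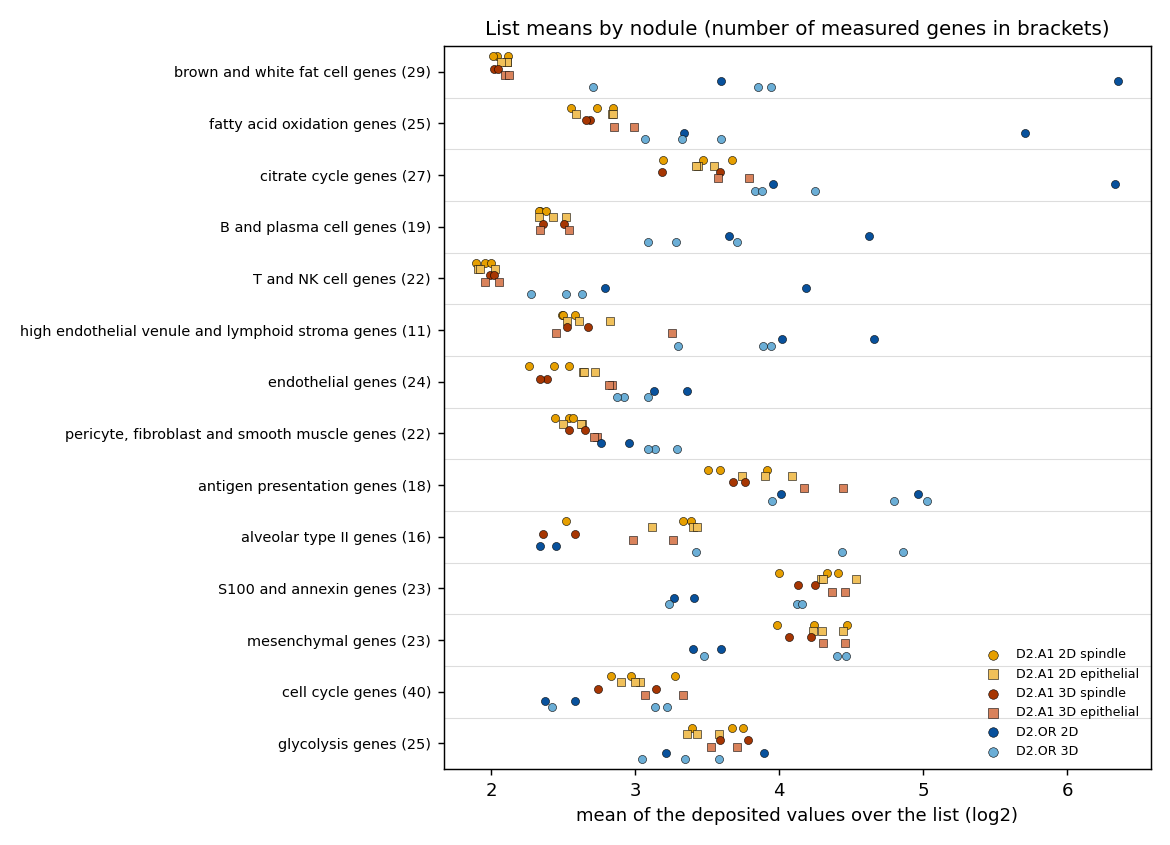
Mean log2 value of 14 gene lists in each nodule, with 1 point per nodule, colored by group and squared for epithelial nodules. The D2.OR points lie above all D2.A1 points for the fat, fatty acid oxidation, citrate cycle, B cell, T cell, lymphoid stroma, endothelial and pericyte lists, and the sides overlap for the other 6.

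More genes were lower than higher in D2.A1 nodules. Of 22184 genes tested, 338 (1.52%) were higher and 815 (3.67%) were lower in D2.A1 at an adjusted p of 0.05 in limma, and the median difference over all genes was 0.016. In 117 genes (0.527%) every D2.A1 nodule exceeded every D2.OR nodule, and in 259 genes (1.17%) every D2.A1 nodule lay below every D2.OR nodule. Of these 376 genes, 338 also passed the line test and 38 did not. Among the 1153 genes past the line test, 1137 (98.6%) had the same sign in both culture strata. This share is largely set by the selection, because the line contrast averages both strata. Of the 1153, 59 passed within both strata, 685 within 2D only, 34 within 3D only and 375 within neither.

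Within 2D, 221 genes (0.996%) were higher and 710 (3.20%) lower. Within 3D, the counts were 43 (0.194%) and 56 (0.252%). This order was not stable: array weights gave 198 higher and 654 lower within 2D and 221 and 731 within 3D, and without D2.OR 3D nodule 2 the lower count within 3D was 462. Passing in both strata were 24 higher genes (0.108%) and 35 lower genes (0.158%), and adding the demand that the sides do not overlap left 23 higher genes (0.104%) and 33 lower genes (0.149%). These 56 genes are called the core here. The counts depended on single nodules: with 1 nodule left out at a time, the genes higher in both strata numbered 12 to 37, and the lower ones 14 to 115, with 12 and 14 when D2.A1 3D epithelial nodule 2 was dropped and 37 and 115 when D2.OR 3D nodule 2 was. Dropping either D2.OR 2D nodule, number 2 or number 3, gave 111 or 98 lower ones. Spindle nodules alone gave 4 higher and 5 lower in both strata. The 24 core genes with the largest differences, 12 in each direction, were all past the line threshold in each of the 27 alternatives run on them. Spindle nodules alone were included, and the adjusted p was at most 0.0254. These genes were chosen because they pass the line test and separate the sides in the same arrays. The alternatives checked only the line call, so they are not an independent check of the core. Within D2.A1, none of the 22184 genes passed the test of spindle against epithelial nodules and 1 passed that of 3D against 2D nodules, so these tests do not set the core apart.

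**Figure D2:**
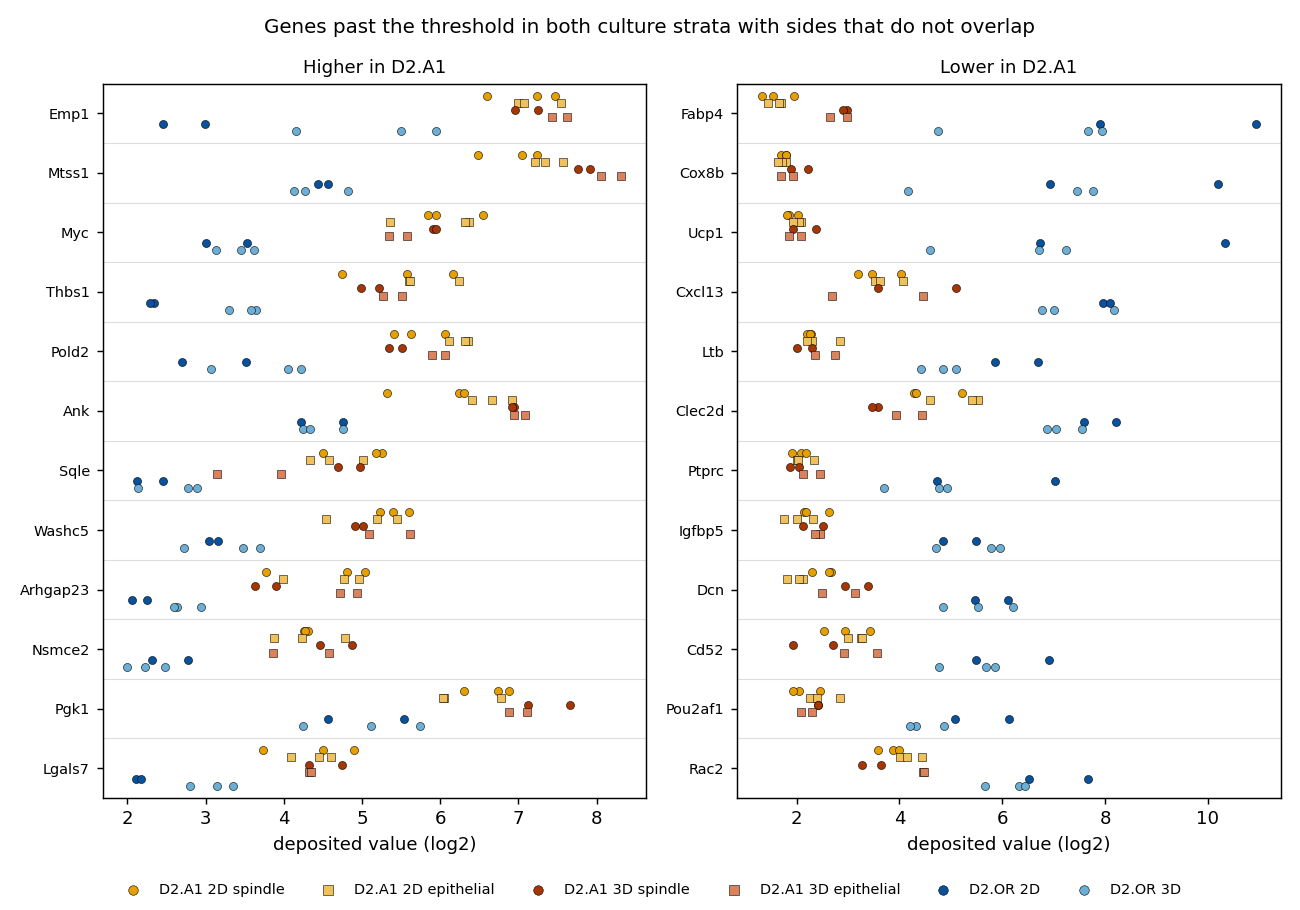
Log2 values of the 24 core genes with the largest line differences, with 1 point per nodule, colored by group and squared for epithelial nodules. In each row the 10 D2.A1 points and the 5 D2.OR points lie apart. Mtss1 ran from 6.48 to 8.32 in D2.A1 and from 4.13 to 4.82 in D2.OR.

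Of the 23, 10 lie on mouse chromosome 15 (gene order from RefSeq, assembly GRCm38.p6), which holds 839 of the 22184 tested genes. Of those 10, 9 lie between Tnfrsf11b and Pvt1, a stretch whose ends were chosen after the values were seen. This stretch holds 45 measured genes. Of them 17 were higher in D2.A1, none was lower and 41 had a positive difference, with a median of 0.307 against 0.016 over all genes. In 11 of the 45 the sides did not overlap with D2.A1 above. The shares over all genes were 1.52% higher and 0.527% higher without overlap. The other 794 measured genes of chromosome 15 gave 9 higher and 36 lower, with a median of -0.002. Mtss1, Sqle, Washc5, Nsmce2 and Trib1 were the only run of 3 or more neighboring genes, among those above the median signal, whose sides did not overlap.

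**Figure D3:**
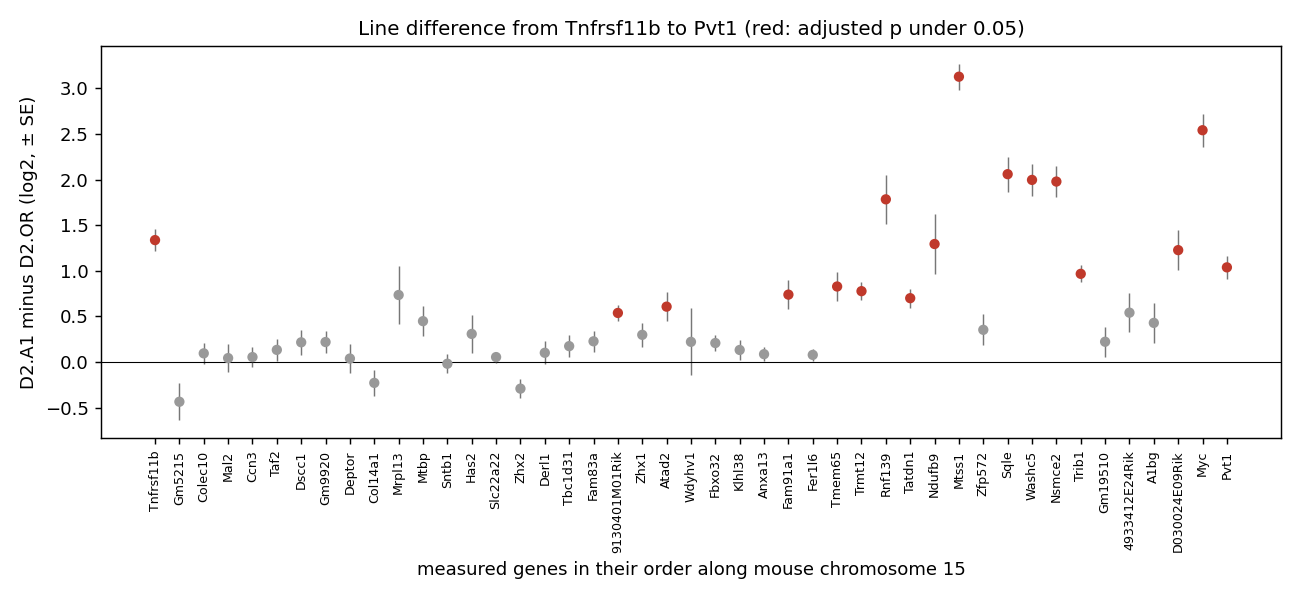
D2.A1 minus D2.OR difference (log2, with its SE) of the 45 measured genes from Tnfrsf11b to Pvt1 in chromosomal order, red where the adjusted p is under 0.05. The differences are near 0 over most of the left part and reach 3.13 at Mtss1 and 2.54 at Myc on the right.

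Mtss1, whose product bends the plasma membrane and binds actin, had the lowest adjusted p among the higher core genes. It read 6.48 in the lowest D2.A1 nodule, 7.46 at the median and 8.32 in the highest, against 4.56 and 4.43 in D2.OR 2D and 4.82, 4.13 and 4.28 in D2.OR 3D. Every D2.A1 nodule was at least 1.66 above every D2.OR nodule, and the D2.OR nodules differed little among themselves. The difference was 3.13 ± 0.14 (SE, 10 against 5 nodules, adjusted p = 7.8e-07), 2.65 within 2D and 3.60 within 3D.

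Myc, the transcription factor that drives growth and ribosome production, ran from 5.35 through a median of 5.92 to 6.54 in D2.A1, and it read 3.00 and 3.54 in D2.OR 2D and 3.14, 3.62 and 3.45 in D2.OR 3D. The gap between the sides was 1.73, the widest among the higher core genes. The difference of 2.54 ± 0.18 (SE, adjusted p = 1.47e-05), a 5.82-fold higher signal, was 2.79 within 2D and 2.29 within 3D. Its neighbor Pvt1, a long noncoding RNA, was higher by 1.04 ± 0.13 (SE, adjusted p = 0.000601).

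Sqle, squalene epoxidase of cholesterol synthesis, ran from 3.14 through 4.63 to 5.25 in D2.A1 and read 2.45 and 2.12 in D2.OR 2D and 2.77, 2.14 and 2.89 in D2.OR 3D. The sides stood apart by 0.25, with both 3D epithelial nodules the lowest of D2.A1. Washc5, a subunit of the WASH complex that forms actin on endosomes, was higher by 2.00 ± 0.18 (SE), and Nsmce2, a SUMO ligase of the SMC5/6 DNA repair complex, by 1.98 ± 0.17 (SE). Smaller differences without overlap were those of Rnf139, a ubiquitin ligase of the endoplasmic reticulum, at 1.78, Tnfrsf11b, the decoy receptor osteoprotegerin, at 1.34, and the pseudokinase Trib1 at 0.97. These last 3 genes were picked after their values were seen. Rnf139 lost its call with spindle nodules alone. Ndufb9, an accessory subunit of respiratory complex I on the same stretch, was higher by 1.29 ± 0.33 (SE, adjusted p = 0.0432), but its D2.OR 2D nodule 2 read 7.69, above every D2.A1 nodule, and 14 of the 15 fits with 1 nodule left out ended the call.

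Matrix and surface genes made a further set. Emp1, a small membrane protein of epithelial cells, showed the largest difference of the higher core. It ran from 6.60 through 7.24 to 7.62 in D2.A1 and read 3.00 and 2.46 in D2.OR 2D and 5.50, 4.15 and 5.95 in D2.OR 3D. D2.OR 3D nodules 1 and 3 came closest to D2.A1. The difference was 3.27 ± 0.26 (SE, adjusted p = 2.86e-05), with 4.43 within 2D and 2.11 within 3D. Thbs1, the matrix protein thrombospondin 1, ran from 4.74 through 5.55 to 6.24 in D2.A1 and read 2.34 and 2.29 in D2.OR 2D and 3.65, 3.58 and 3.30 in D2.OR 3D, a difference of 2.54 ± 0.20 (SE, adjusted p = 2.56e-05). Lgals7, the sugar-binding galectin 7, was higher by 1.79, and Arhgap23 by 1.99.

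Pold2, the second subunit of DNA polymerase delta, ran from 5.35 through 5.98 to 6.36 in D2.A1, against 3.51 and 2.70 in D2.OR 2D and 4.06, 3.06 and 4.22 in D2.OR 3D. The sides stood apart by 1.13 and the difference was 2.40 ± 0.20 (SE, adjusted p = 3.61e-05). Ank, which exports ATP and pyrophosphate and also lies on chromosome 15, ran from 5.32 through 6.78 to 7.08 in D2.A1 and from 4.22 to 4.76 in D2.OR. Its difference was 2.17, and it was larger within 3D (2.53) than within 2D (1.82), a contrast that did not pass its own test.

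Pgk1, the glycolytic enzyme phosphoglycerate kinase 1, ran from 6.03 through 6.82 to 7.66 in D2.A1 and read 5.53 and 4.56 in D2.OR 2D and 5.74, 4.24 and 5.11 in D2.OR 3D. The gap between the sides was 0.30 and the difference 1.79 ± 0.25 (SE, adjusted p = 0.00136). Among the 25 measured glycolysis genes 5 were higher, Pgk1, Tpi1, Pkm, Gapdh and Pgam1, and 1, Pfkfb3, was lower, and the list median was -0.009. The shares over all genes were 1.52% higher and 3.67% lower. Tpi1, Pkm and Pgam1 lost their calls in 10, 11 and 10 of the 15 fits with 1 nodule left out. Pgk1 and Gapdh kept theirs in all of these fits. Gapdh read 9.76 to 11.02 in D2.A1 and 8.68 to 9.81 in D2.OR, which overlap, with a difference of 1.11 ± 0.20 (SE, adjusted p = 0.00678). The count of higher glycolysis genes fell to 2 in several of the fits with 1 nodule left out, and to 2 with spindle nodules alone.

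Promoters of core genes were read from RefSeq (GRCm38.p6, 250 bases before to 50 after the start) for genes in both directions that move together. Of the 56 core genes, 10 higher and 20 lower had a window, and 16994 of all tested genes did. Searched on both strands were CACGTG, the E-box that Myc and Max bind, ACGTG, the core of the hypoxia response element, which the E-box contains, and AGGTCA, the hexamer that nuclear receptors bind. CACGTG was in 1 of the 10 higher and 1 of the 20 lower genes, against 9.19% of all genes, ACGTG in 3 and 4, against 23.8%, and AGGTCA in 2 and 4, against 16.4%. The 4 windows shown are those of Pgk1 and Slc20a1 of the higher genes and of Ucp1 and Cox8b of the lower genes, chosen because they hold the motifs. Capitals mark the motifs. Slc20a1, a phosphate transporter named after its values were seen, was higher by 1.69 ± 0.18 (SE, adjusted p = 0.000197), with 4.34 to 5.59 in D2.A1 and 2.83 to 3.69 in D2.OR. The windows lie at chrX:106186850-106187149 (Pgk1, + strand), chr2:129198523-129198822 (Slc20a1, + strand), chr8:83290098-83290397 (Ucp1, + strand) and chr7:140900397-140900696 (Cox8b, - strand). A match is a description of letters and not a measured binding site.
Pgk1: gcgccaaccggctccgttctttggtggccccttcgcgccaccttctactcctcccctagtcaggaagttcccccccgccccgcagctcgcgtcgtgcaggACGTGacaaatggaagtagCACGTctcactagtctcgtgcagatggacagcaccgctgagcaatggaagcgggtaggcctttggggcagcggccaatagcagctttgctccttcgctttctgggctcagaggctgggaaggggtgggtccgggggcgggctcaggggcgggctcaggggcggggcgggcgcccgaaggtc
Slc20a1: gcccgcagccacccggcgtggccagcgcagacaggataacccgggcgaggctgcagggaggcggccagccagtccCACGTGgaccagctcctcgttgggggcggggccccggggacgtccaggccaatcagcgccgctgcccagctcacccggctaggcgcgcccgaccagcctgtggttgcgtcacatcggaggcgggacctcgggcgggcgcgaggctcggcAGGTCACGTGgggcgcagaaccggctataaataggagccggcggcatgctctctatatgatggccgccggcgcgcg
Ucp1: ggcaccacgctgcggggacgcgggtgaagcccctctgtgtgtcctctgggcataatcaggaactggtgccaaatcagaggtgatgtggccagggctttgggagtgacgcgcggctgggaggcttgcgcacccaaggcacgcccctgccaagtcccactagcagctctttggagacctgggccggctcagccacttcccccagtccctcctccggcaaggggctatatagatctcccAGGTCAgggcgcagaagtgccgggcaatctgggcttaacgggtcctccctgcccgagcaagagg
Cox8b: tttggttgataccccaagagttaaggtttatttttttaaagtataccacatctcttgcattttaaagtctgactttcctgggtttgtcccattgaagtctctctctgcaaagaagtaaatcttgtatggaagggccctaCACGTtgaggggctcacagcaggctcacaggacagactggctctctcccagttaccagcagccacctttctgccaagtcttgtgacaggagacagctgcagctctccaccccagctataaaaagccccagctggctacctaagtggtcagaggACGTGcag

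The lower core was led by genes of brown fat. Fabp4, a fatty acid carrier of fat cells, read 1.32 in the lowest D2.A1 nodule, 1.82 at the median and 2.99 in the highest, against 10.93 and 7.90 in D2.OR 2D and 7.94, 7.66 and 4.76 in D2.OR 3D. All 5 D2.OR nodules lay above all D2.A1 nodules, and D2.OR 2D nodule 2 was the highest and D2.OR 3D nodule 3 the lowest of them. The difference was -5.86 ± 0.54 (SE, adjusted p = 8.13e-05). The D2.A1 median lay near the array medians and no detection calls were used, so the differences of the fat cell genes named here may be understated. Ucp1, the uncoupling protein by which brown fat makes heat, ran from 1.81 through 1.97 to 2.39 in D2.A1 and read 10.33 and 6.74 in D2.OR 2D and 7.24, 6.71 and 4.59 in D2.OR 3D. The gap of 2.20 was the widest of all core genes, and the difference was -5.35 ± 0.52 (SE, adjusted p = 0.000136). Cox8b, a subunit of respiratory complex IV in brown fat and muscle, ran from 1.65 to 2.21 in D2.A1 and from 4.17 to 10.20 in D2.OR, with a difference of -5.68 ± 0.59 (SE).

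Of the 29 measured fat cell genes 18 were lower in D2.A1, none was higher, and in 15 the sides did not overlap, with a list median of -1.79. Over all genes 3.67% were lower and 1.17% lower without overlap. These include Pck1, phosphoenolpyruvate carboxykinase, at -4.05, and Cidea and Cidec of lipid droplets, named after their values were seen. Leaving out 1 nodule at a time gave 12 to 26 lower, and spindle nodules alone gave 6. Genes of fatty acid oxidation (9 of 25 lower, median -1.34), the citrate cycle (8 of 27, -1.04) and oxidative phosphorylation (13 of 50, -0.80, with Ndufb9 higher) moved the same way. Some lower genes are counted in more than 1 list. Pck1 is in the fat cell and citrate cycle lists, and Cox7a1 in the fat cell and oxidative phosphorylation lists. Sdha is in the citrate cycle and oxidative phosphorylation lists. The fat cell mean was also the highest in D2.OR 2D nodule 2, at 6.36, where the citrate cycle mean was 6.33 and the oxidative phosphorylation mean 6.05. The part of fat cells in the results on these metabolic lists was not tested. Those 3 counts rested on single nodules: they were 21, 24 and 41 with D2.OR 2D nodule 3 dropped and 4, 3 and 5 with the first D2.OR 3D nodule dropped. With spindle nodules alone they were 0, 1 and 2.

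Lymphoid genes formed the next set of lower core genes. Cxcl13, the chemokine that attracts B cells, ran from 2.69 through 3.60 to 5.10 in D2.A1 and read 7.96 and 8.09 in D2.OR 2D and 6.77, 8.18 and 7.0 in D2.OR 3D. No D2.A1 nodule reached the D2.OR range, and the difference was -3.87 ± 0.34 (SE, adjusted p = 6.46e-05). Ltb, lymphotoxin beta, which builds lymphoid tissue, ran from 2.01 through 2.29 to 2.84 in D2.A1 and read 5.87 and 6.69 in D2.OR 2D and 4.84, 4.42 and 5.10 in D2.OR 3D. Its difference was -3.19 ± 0.16 (SE, adjusted p = 1.5e-06). Ptprc, the leukocyte antigen CD45, differed by -3.06 ± 0.31 (SE), from 1.86 to 2.45 in D2.A1 and from 3.69 to 7.03 in D2.OR. Clec2d, a ligand of a natural killer cell receptor, differed by -3.16, with -3.01 within 2D and -3.30 within 3D. Cd52, a surface antigen of leukocytes, differed by -2.89, and Rac2, a GTPase of blood cells, by -2.63. Pou2af1, a B cell coactivator, differed by -2.73.

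Among 19 measured B and plasma cell genes 14 were lower and none higher, with 9 that did not overlap and a median of -1.14. Over all genes 3.67% were lower and 1.17% lower without overlap. Cd79a, part of the B cell receptor, read 1.68 to 2.58 in D2.A1 and 3.24 to 5.87 in D2.OR. Against the same background, 11 of 22 T and NK cell genes were lower and none higher (median -0.76), with Cd3e at -1.89 and Ccr7, the homing receptor, at -2.37. Leaving out D2.OR 2D nodule 2 raised this count to 18. The list mean of T and NK cell genes was 1.89 to 2.06 in D2.A1 and 2.28 to 4.19 in D2.OR. Of 11 lymphoid stroma genes 4 were lower, among them Glycam1, an adhesion molecule of high endothelial venules, which overlapped, with a highest D2.A1 value of 8.70. Antigen presentation genes were lower in 7 of 18, with H2-Eb1 at -1.31. Macrophage genes were lower in 4 of 27 with 1 higher (Cd14), and neutrophil and mast cell genes in none of 18. The macrophage count was 8 without D2.OR 2D nodule 2 and 7 without D2.OR 3D nodule 2, and 7 of the 15 fits with 1 nodule left out ended the Cd14 call.

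Igfbp5, which binds insulin-like growth factors, ran from 1.75 through 2.25 to 2.63 in D2.A1 and read 5.49 and 4.84 in D2.OR 2D and 4.71, 5.78 and 5.96 in D2.OR 3D. Its difference was -3.06 ± 0.20 (SE, adjusted p = 9.18e-06) and nearly equal within 2D (-3.00) and within 3D (-3.12). Dcn, the collagen-binding proteoglycan decorin of fibroblasts, ran from 1.81 through 2.57 to 3.38 in D2.A1 against 6.12 and 5.48 in D2.OR 2D and 4.85, 6.21 and 5.53 in D2.OR 3D, a difference of -3.04 ± 0.21 (SE, adjusted p = 9.18e-06). Of 24 endothelial genes 10 were lower, none was higher and 14 did not pass (median -0.39, against 3.67% lower over all genes), with Pecam1 at -1.13 and the receptor S1pr1 at -1.80. Of 22 pericyte, fibroblast and smooth muscle genes 5 were lower, 1 (Npnt) was higher and 16 did not pass, and 12 of the 15 fits with 1 nodule left out ended the Npnt call. Epas1, the hypoxia factor HIF-2 alpha that endothelium and lung express strongly, read 2.22 to 4.22 in D2.A1 and 4.71 to 6.34 in D2.OR.

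Xist, the RNA that silences 1 X chromosome in female cells, was also among the lower core genes. It ran from 2.51 through 3.14 to 4.25 in D2.A1 and read 5.64 and 6.16 in D2.OR 2D and 5.75, 4.40 and 5.66 in D2.OR 3D. The gap was 0.14, with D2.OR 3D nodule 2 the lowest of its side. The difference was -2.34 ± 0.23 (SE, adjusted p = 0.000148).

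Several large differences outside the core, named after their values were seen where no list holds them, rested on the contrast with D2.OR 2D and with D2.OR 3D nodule 2. Kcnma1, the BK potassium channel, ran from 10.96 through 11.05 to 11.42 in D2.A1 and read 2.82 and 2.40 in D2.OR 2D and 10.04, 5.20 and 10.45 in D2.OR 3D. D2.OR 3D nodules 1 and 3 stood near D2.A1 and the other 3 far below. The sides did not overlap, and the difference was 5.52 ± 0.67 (SE, adjusted p = 0.000601), but within 3D it was 2.54 (adjusted p = 0.327). S100a4, a calcium-binding protein tied to cell motility, followed the same order, with 6.97 to 8.38 in D2.A1, 2.33 and 4.13 in D2.OR 2D and 6.51, 4.12 and 6.47 in D2.OR 3D. Of 23 S100 and annexin genes 7 were higher, none was lower and 4 did not overlap, against 1.52% higher and 0.527% higher without overlap over all genes. S100a6 differed by 3.05 and Anxa2 by 2.36. None of these 7 passed in both strata.

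Over all genes 1.52% were higher and 3.67% lower. Of 23 mesenchymal genes 5 were higher and 1 lower (median 0.304), with Vim, the intermediate filament vimentin, at 1.44 ± 0.24 (SE), the repressor Snai1 at 1.45 and Snai2 at -0.90. Vim and Snai2 lost their calls with spindle nodules alone. Of 40 extracellular matrix genes 9 were higher and 3 lower, with Mgp, matrix Gla protein, at 2.54 and Lama5, a laminin chain, at 1.69. Spindle nodules alone gave 2 higher matrix genes, and Lama5 lost its call there (adjusted p = 0.0598). Without D2.OR 2D nodule 3 the higher count was 5, and without D2.OR 3D nodule 2 the lower count was 10. Of 40 cell cycle genes 6 were higher and 1 lower, with Anln, anillin of the contractile ring, at 1.40, and leaving out 1 nodule at a time gave 2 to 7 higher. Of 35 integrin and focal adhesion genes 4 were higher and 1 lower, and the higher count was 2 to 8 with 1 nodule left out. Of 21 cell cycle inhibitor and p53 pathway genes 2 were higher, with Cdkn2a at 1.44, and 4 lower, with Btg2, an antiproliferative gene, at -1.56 and Rb1 at -0.84. The higher count fell to 1 and the lower count to 2 in 6 fits each with 1 nodule left out, D2.OR 2D nodule 3 among both, and Rb1 lost its call with spindle nodules alone (adjusted p = 0.0669). Of 39 autophagy genes 2 were higher and 4 lower, and spindle nodules alone gave 0 and 0. With 1 nodule left out the lower count was 0 to 6, with 0 without D2.A1 3D spindle nodule 1 or the first D2.OR 3D nodule.

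**Figure D4:**
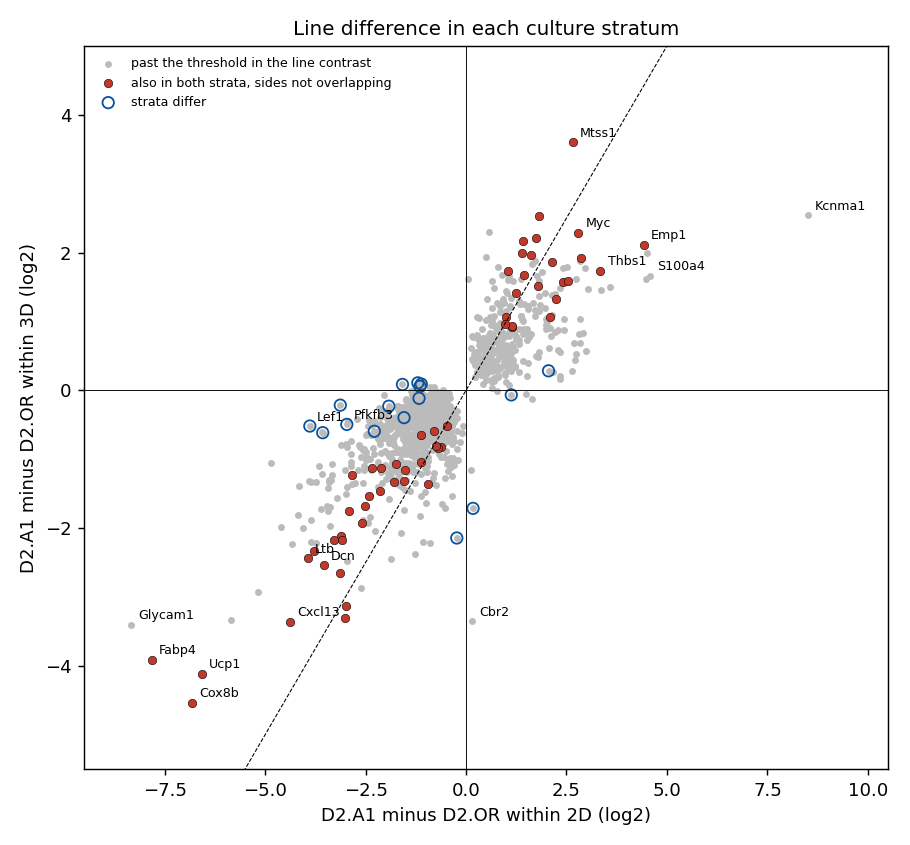
D2.A1 minus D2.OR difference within 2D (x axis, log2) and within 3D (y axis, log2) for the 1153 genes past the line threshold, in gray, with the 56 core genes in red, those among the 1153 whose strata differ circled and the dashed line marking equal differences. Mtss1 lies above the dashed line, at 2.65 within 2D and 3.60 within 3D, and Kcnma1 far below it, at 8.50 and 2.54.

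The line contrast differed between the strata in 21 genes (0.0947%). Pfkfb3, which makes the activator of phosphofructokinase 1, was 1 of them. It ran from 2.20 through 2.64 to 3.42 in D2.A1 and read 5.81 and 5.45 in D2.OR 2D and 3.57, 3.15 and 2.83 in D2.OR 3D. The D2.OR 2D nodules stood above all others, and the D2.OR 3D nodules overlapped with D2.A1. Its difference was -2.97 ± 0.23 (SE, adjusted p = 5.06e-05) within 2D and -0.49 ± 0.22 (SE, adjusted p = 0.462) within 3D, and these differed by 2.47 (adjusted p = 0.0188). Over both strata the Pfkfb3 difference was -1.73, a call that was lost with line alone. The study reports from its arrays higher Pfkfb3 in metastatic than in dormant tumors, which is the opposite sign. The reason for this contrast was not tested. Rgs5, a pericyte regulator of G protein signals, differed by -3.57 within 2D and -0.61 within 3D, and Lef1, a transcription factor of lymphocytes and Wnt signaling, by -3.89 and -0.52.

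Of the measured genes of the lung lists, 2 of 16 alveolar type II genes, 1 of 12 alveolar type I genes and none of 16 airway genes passed the test of the strata difference. These 3 were named because their strata differ. Sftpc differed by 5.02 within 2D and by -3.07 within 3D, a difference between strata of -8.09 (adjusted p = 0.0265). Sftpb, surfactant protein B, gave 3.53 and -2.19, and the water channel Aqp5 of alveolar type I cells 1.21 and -0.72. The alveolar type II list mean was 2.34 and 2.45 in D2.OR 2D and 3.42 to 4.86 in D2.OR 3D. The part of lung tissue in other differences between the strata was not tested. The count of 21 depended on single nodules, with 3 to 448 genes when 1 nodule was left out and the most without D2.OR 2D nodule 3.

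Sqstm1, the autophagy receptor p62, ran from 5.79 through 6.72 to 7.08 in D2.A1 and from 5.53 to 6.44 in D2.OR, with a difference of 0.75 ± 0.17 (SE, adjusted p = 0.0269), and 6 of the 15 fits with 1 nodule left out ended the call. The Sqstm1 call was also lost with spindle nodules alone (adjusted p = 0.282), line alone, the replicate block, nodules of 1 number averaged and no moderation. Cd24a is a surface marker that the study gated with CD49f (Itga6) for stem cells. It read 3.10 to 5.06 in D2.A1 and 5.11 to 7.10 in D2.OR. The Cd24a difference of -1.83 ± 0.33 (SE, adjusted p = 0.007) lost its call with nodules of 1 number averaged. The kinases Pfkfb2 (adjusted p = 0.696) and Pfkfb4 (0.469), the autophagy genes Atg3 (0.216), Atg7 (0.241) and Rb1cc1 (0.676) and the integrin Itga6 (0.91) did not pass.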

How the data were processed

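Members and gene lists were chosen with earlier results of these data known. The authors deposited 1 table of log2 values for the 15 arrays, made by RMA (background correction, quantile normalization and median polish). The log base was taken from the method. No detection calls were used, array number and not depth limits precision, and 0 value columns were left unused. Of 41345 transcript clusters, the platform annotation gives 23525 a single symbol, 1816 several and 16004 none. Clusters with a single symbol were kept, 1 per gene, which left 22184 genes, of which 21995 have a chromosome in RefSeq. limma (version 3.58.1, R 4.3.3) fitted 6 group means over the 15 arrays. The line contrast averaged D2.A1 minus D2.OR over both strata, with Benjamini-Hochberg adjustment and a threshold of 0.05. A group of 2 nodules borrows its spread from the others. On simulated data with 200 changed genes among 22184 in the line contrast, 86.6% of 67 genes with a log2 change of 1 were recovered, and 100% of 67 with a change of 2, with 68.7% and 97.0% in both strata. There 13 unchanged genes, 6.37% of the calls, were called in the line contrast and 0 in both strata. These shares hold for the simulated data. Recovery with nodules that share a mouse, or with a D2.OR side as uneven as here, was not tested. Named were, per direction, the 12 core genes that differed most, up to 4 called members of each list, genes the study follows and 3 genes per direction whose strata differ most. Other names were chosen after their values were seen, as the text says. Alternatives covered the model, the scaling, the threshold, morphology, the replicate block, the clusters used and each left-out nodule.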

Additional observations from a re-analysis of the deposited data

Results flagged for a closer look

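Single nodules stood far from the rest of their side in 3 of 48 sides of the 24 core genes and in 7 of 70 sides of the 35 list means, and chance marks about 1 in 20 sides. Ank was lowest in D2.A1 2D spindle nodule 3, at 5.32, with the next nodule at 6.24. Cox8b was highest among D2.A1 in 3D spindle nodule 2, at 2.21, and Ucp1 in 3D spindle nodule 1, at 2.38, both still far below every D2.OR nodule. D2.OR 2D nodule 2 stood above the other D2.OR nodules in the list means of oxidative phosphorylation (6.05, next 4.52), the citrate cycle (6.33, next 4.25) and fatty acid oxidation (5.71, next 3.60). D2.OR 2D nodule 3 was highest for T and NK cell genes, at 4.18. D2.OR 3D nodule 2 was lowest for autophagy genes, at 2.75, and highest for erythroid and platelet genes, at 2.83. Not flagged was its heart and skeletal muscle mean of 3.71, against 1.98 to 2.50 in the other D2.OR nodules and 1.99 to 2.15 in D2.A1. Its airway mean of 3.70 was also the highest, with D2.OR 3D nodule 3 next at 3.37. The part of such host tissue in the counts that moved without this nodule was not tested. D2.A1 3D epithelial nodule 2 was highest of its side for lymphoid stroma genes, at 3.25.

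The line difference within 3D minus that within 2D passed its own limma test for 7 of the genes named here. It was 2.47 for Pfkfb3, 2.95 for Rgs5, 3.37 for Lef1 and 2.91 for an immunoglobulin kappa variable segment, where D2.OR 2D nodules stood above the rest. It was -8.09 for Sftpc, -5.72 for Sftpb and -1.93 for Aqp5, where D2.OR 2D nodules stood low.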

How the results depend on the processing

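Counts are given as higher/lower in D2.A1. The main counts were 338/815 for the line, 24/35 in both strata, 221/710 within 2D, 43/56 within 3D, 21 for the strata difference and 117/259 for sides that do not overlap, and counts not printed stayed within 1.5 times these. Spindle nodules alone gave 99/280, 4/5, 51/158, 8/8, 1 and 343/610 in that order, with fewer nodules. Averaging nodules of 1 number gave 176/268, 10/4, 131/265, 15/6, 3 and 472/621. Without moderation the first 5 were 182/433, 8/9, 106/329, 11/12 and 2, and a 3-fold limit gave 48/103, 10/16, 77/217, 19/24 and 13. A 2-fold limit with unadjusted p gave 147/368 for the line, 67/121 in both strata, 113/245 within 3D and 499 for the strata difference. Array weights gave 1267 lower for the line, 56/177 in both strata, 198/654 within 2D, 221/731 within 3D and 65. Cyclic loess gave 563 higher for the line, 68/71 in both strata, 408 higher within 2D, 122/122 within 3D, 71 and 208 higher without overlap. Without both D2.OR nodules numbered 2 the counts were 1890 lower for the line, 46/339 in both strata, 1362 lower within 2D, 91/783 within 3D, 660 and 372/987 without overlap. Line alone gave 219 higher, 4 group means a strata count of 37, all clusters 39 higher in both strata and 243 higher without overlap, and all D2.A1 nodules against each D2.OR group 43/60 in both strata and 100 lower within 3D. The replicate block gave 237/650 for the line, 20 lower in both strata, 26/29 within 3D and 10 for the strata difference. Residual correlations ran from -0.463 to 0.25 (median -0.022, 31 pairs) for nodules of the same number. For nodules of different numbers they ran from -0.297 to 0.405 (median 0.003, 62 pairs). Pairs from different lines or cultures are included and cannot share a mouse, so these values do not decide whether numbers pair nodules by mouse. With 1 nodule left out the line gave 250 to 380 higher and 533 to 1368 lower, both strata 12 to 37 and 14 to 115, 2D 138 to 402 and 512 to 1033, 3D 18 to 65 and 20 to 462, the strata difference 3 to 448 and sides without overlap 124 to 196 and 266 to 586. The line count of 1368, the 3D count of 462 and both highest overlap counts came without D2.OR 3D nodule 2. Among 143 named genes, 3394 of 3859 values kept direction and side of the threshold, 454 lost the call, 4 gained it and 7 changed sign, none of them past the threshold: Itga6 (-0.103 with spindle nodules alone, -0.141 without both nodules numbered 2), Sftpb (-0.106 with spindle nodules alone) and Pfkfb2 (0.017 without both nodules numbered 2). With 1 nodule dropped, Itga6 ran from -0.103 to 0.171 and Pfkfb2 from -0.139 to 0.001, each changing sign when D2.OR 2D nodule 2 was dropped and Itga6 (-0.005) also when D2.OR 3D nodule 2 was. The cause of these changes was not tested. The 2 D2.OR 2D nodules, the unknown mice, the unmeasured share of tumor cells and the single morphology of D2.OR limit the comparison.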

Other observations

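Within D2.A1, no gene passed the limma test of spindle against epithelial nodules after adjustment, although 1734 had an unadjusted p under 0.05 and the lowest adjusted p was 0.0533. For 3D against 2D nodules 1 gene passed, with 1183 at an unadjusted p under 0.05.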
